A study of Mus musculus with 16 samples.

Results

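Irs2 and Hk1 each held 1 site in the deposited table of 622 N6-methyladenosine (m6A) sites that differed between wild-type and Mettl14 conditional knockout livers. The rows were those named Irs2 or Hk1, which gave 2 of the 622 sites and 2 of the 586 gene names in the table. The livers came from 4 wild-type mice (WT, Albumin-Cre; Mettl14 +/+) and 4 knockout mice (KO, Albumin-Cre; Mettl14 flox/flox), all of them fed a 42% high-fat diet for 3 months. Each liver gave 1 input library and 1 library of RNA immunoprecipitated with an anti-m6A antibody, so the series held 16 libraries in groups of 4. Albumin-Cre is active mainly in hepatocytes, and Mettl14 was not measured here in any cell type of these livers. The wild-type mice carried the same Cre, and no liver on ordinary chow was among the groups.

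m6A is written onto nascent mRNA by a methyltransferase complex in which METTL3 is the catalytic subunit and METTL14 holds the RNA, and the complex prefers the motif RRACH, where R stands for either purine and H for any base but G. The mark is typically dense in long internal exons, near stop codons and in 3′UTRs, and reader proteins bound to it change the stability and translation of the mRNA. Irs2 encodes insulin receptor substrate 2, the adaptor that, with IRS1, passes the signal of the insulin receptor to phosphoinositide 3-kinase in the liver. Hk1 encodes hexokinase 1, which phosphorylates glucose to glucose-6-phosphate. Hexokinase 1 is the form of brain, blood cells and many other cell types.

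Both sites were single 50-nt bins, the unit in which the authors counted reads. The Irs2 site was at chr8:11005459-11005508 on the minus strand and the Hk1 site at chr10:62269400-62269449, also on the minus strand (mm10). The sequences below were read 5′ to 3′ on the strand of the gene from GRCm38, with every RRACH match in capitals. The Irs2 site is shown alone and then with 50 nt on both sides (chr8:11005409-11005558), because a further match ran across its 5′ edge. For Hk1, 30 nt around the match are shown (bases 16 to 45 of the site, chr10:62269405-62269434).
Irs2 site: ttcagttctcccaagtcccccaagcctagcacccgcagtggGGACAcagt
Irs2 site and surroundings: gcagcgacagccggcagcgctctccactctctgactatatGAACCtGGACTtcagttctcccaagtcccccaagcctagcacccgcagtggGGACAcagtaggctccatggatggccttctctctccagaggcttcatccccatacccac
Hk1 site, part: aagggcgagtgtGAACAtggcactgctgtt

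Each site held 1 RRACH match, GGACA starting at base 42 of the Irs2 site and GAACA starting at base 28 of the Hk1 site. GGACA occurred in 63 of the 622 listed sites (10.1%) and GAACA in 38 (6.11%). Any RRACH match was found in 378 listed sites, or 60.8%, and 248 sites held exactly 1, as Irs2 and Hk1 did. The core GGAC was present in the Irs2 site and absent from the Hk1 site, and 26.4% of the listed sites had it. RRACH is short, so a match was common in any stretch of these transcripts. Of all 50-nt windows along the Irs2 transcript 40.1% held one, and of those along the longest Hk1 transcript 48.8% did. In both transcripts the next match upstream was GGACT. In Irs2 it started 45 nt upstream of GGACA and ran over the edge of the site, with 1 of its bases inside. In Hk1 it started 40 nt upstream of GAACA, with 8 nt between its end and the site. Downstream, the next matches started 123 nt (Irs2) and 198 nt (Hk1) after the start of the match in the site. Which adenosine carried the mark cannot be read from a 50-nt bin.

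The 2 sites lay in different parts of their mRNAs. The Irs2 site was in the coding sequence, inside exon 1 of the only annotated Irs2 transcript (Irs2-201, 6323 nt in 2 exons). It covered transcript bases 2951 to 3000, which fall in codons 975 to 991, at 74.3% of the coding sequence. The adenosine of GGACA was the second base of codon 989. The site ended 991 nt before the stop codon, which lies in exon 2. Exon 1 was 3989 nt long and held nearly the whole coding sequence of 3966 nt. Of the 570 listed sites that could be placed in an exon of the longest coding transcript of their gene, 78 lay in a longer exon, and the median exon was 1400 nt.

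The Hk1 site lay in the 3′UTR, in the last exon, with 459 nt between the stop codon and the site. GENCODE lists 20 Hk1 transcripts, 18 of them protein-coding, and 4 of these have an annotated stop codon, the same one in each. The site was held by 3 of the 4: Hk1-201 (3639 nt), Hk1-202 (4278 nt) and Hk1-203 (3851 nt), where it was in exon 20 of 20, exon 18 of 18 and exon 22 of 22. The transcript without it, Hk1-205, ends at the stop codon. All 9 Hk1 transcripts in the RefSeq annotation held the site, as did the single RefSeq transcript of Irs2. The Hk1 isoforms that shared the site differed at their 5′ ends and in where their last exon stopped, 545 nt after the site in Hk1-202, 292 nt in Hk1-201 and 296 nt in Hk1-203. A value for this bin therefore does not tell these isoforms apart. Of the 570 placed sites, 332 were in coding sequence like that of Irs2 and 206 in 3′UTRs like that of Hk1.

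**Figure D1:**
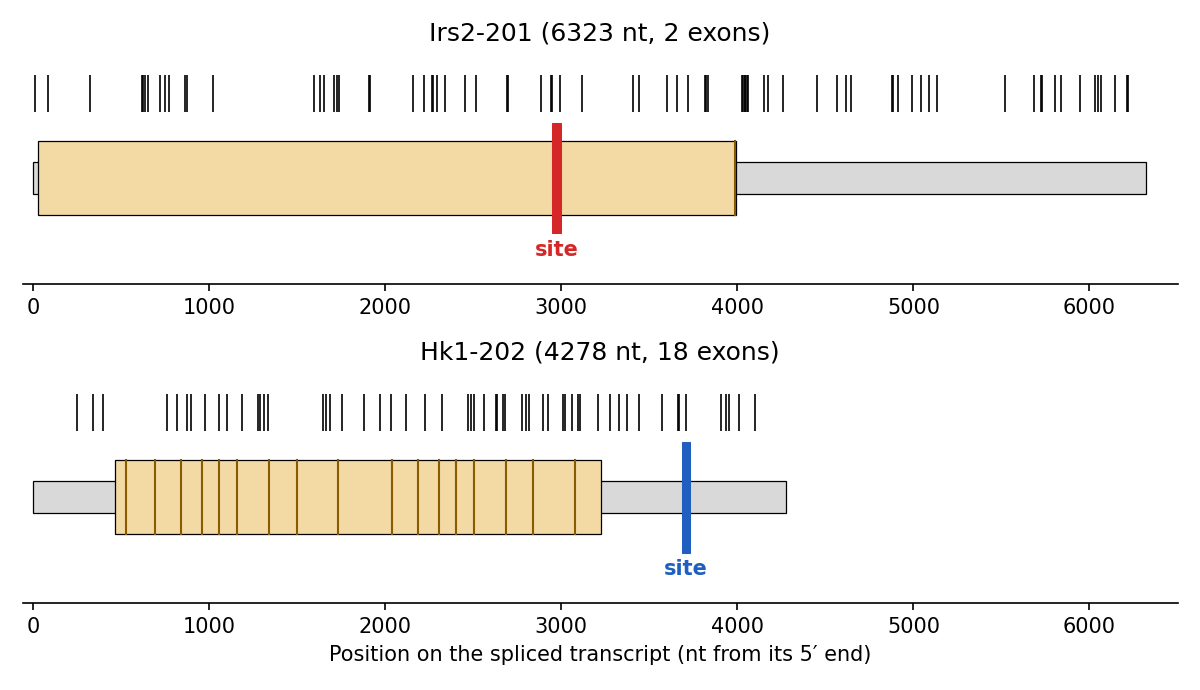
Spliced Irs2-201 and Hk1-202 transcripts drawn to scale in nt from the 5′ end, with UTRs as thin grey bars, coding sequence as tan boxes, exon junctions as brown lines, RRACH matches as black ticks and the listed site in red (Irs2) or blue (Hk1). The Irs2 site sits inside the long first exon of 3989 nt, and the Hk1 site sits in the 3′UTR, 459 nt past the stop codon.

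RRACH matches were spread over both transcripts. Irs2-201 held 77, or 12.2 per 1000 nt, with 43 in the coding sequence (10.8 per 1000 nt) and 33 in the 3′UTR of 2329 nt (14.2 per 1000 nt). Hk1-202 held 57, or 13.3 per 1000 nt, with 41 in the coding sequence (14.9 per 1000 nt) and 13 in the 3′UTR of 1054 nt (12.3 per 1000 nt). The GC content was 60.0% in the Irs2 site and 62.0% in the Hk1 site. The listed sites had a median of 52.0% and a middle range from 44.0% to 60.0%, and 136 sites had more GC than that of Irs2 and 98 more than that of Hk1.

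No exon of another GENCODE gene overlapped either site on either strand. The antisense gene 9530052E02Rik begins 2342 nt from the Irs2 site, over the 5′ end of Irs2, and the antisense gene Hk1os starts 70807 nt from the Hk1 site. A genome search that required 95% identity or more along 95% or more of the bases found each site at its own locus alone. The longest weaker alignment was 48 nt with 93.8% identity for Hk1, on chromosome 18 outside annotated exons, and 26 nt with 88.5% identity for Irs2. Irs1, the paralog that works beside Irs2 in the liver, was 66.3% identical to Irs2 over 3415 aligned bases of coding sequence. At the site 28 of 45 aligned bases were identical, and the aligned stretch of Irs1 held 0 RRACH matches.

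Both sites were selected on their measured values, the logFC and p-value of the authors' differential test that the table lists, so these values are given as a description without a test. The logFC in the authors' table, on the natural log scale, was 4.20 for Irs2 with a p-value of 6.89e-10. For Hk1 it was 5.33 with a p-value of 1.08e-08. On a linear scale these are a 67.0-fold difference for Irs2 and a 206.0-fold difference for Hk1. The counts behind these ratios are not given, so how many reads the lower value of each rests on is unknown. The sources used here do not say which genotype was the reference, so the sign is reported as deposited and is not read as more or less m6A in KO livers. Both signs were positive, as were those of 413 of the 622 sites (66.4%), so sharing a sign was common in the table. The table gives no value per mouse, so neither the overlap of the groups nor the weight of single mice could be examined. The logFC compares immunoprecipitated counts corrected for the input of the gene, so it is not an expression level. In bulk liver, a difference within cells and a shift in the mix of cell types cannot be told apart, and this applies to both genes.

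Hk1 had the highest logFC of the table. The next were Ppp1r12c (4.997), Msn (4.98) and Dok2 (4.94), with Hk1 0.33 above Ppp1r12c on the natural log scale. Irs2 was number 54 by logFC, so that 91.5% of the sites had a logFC at or below its own. Its neighbours were close: Zfp707, Cbx2 and Plekha6 at 4.22 just above, and Col27a1 (4.19), Hapln4 (4.19) and Rassf4 (4.17) just below. Among sites in coding sequence Irs2 was number 24 of 332. By p-value the order of the genes turned around. Irs2 had the fourth smallest p-value of the table, after Traf6 (1.76e-10), C730036E19Rik (4.50e-10) and Sprtn (6.83e-10), and just before Bmp10 (8.42e-10), Tmem119 (1.50e-09) and Etv5 (1.56e-09). Hk1 was number 18, between Zeb2 (8.60e-09), Dok2 (8.79e-09) and Dnajb2 (9.28e-09) before it and Msn (1.15e-08), Utp18 (1.48e-08) and Heca (1.52e-08) after it. Of the neighbours by p-value, Heca alone had a negative logFC (-0.78). The listed p-values ended at 7.11e-04 and the smallest absolute logFC was 0.50, so both sites lay far inside the limits of the list; sites outside it were not analysed here.

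**Figure D2:**
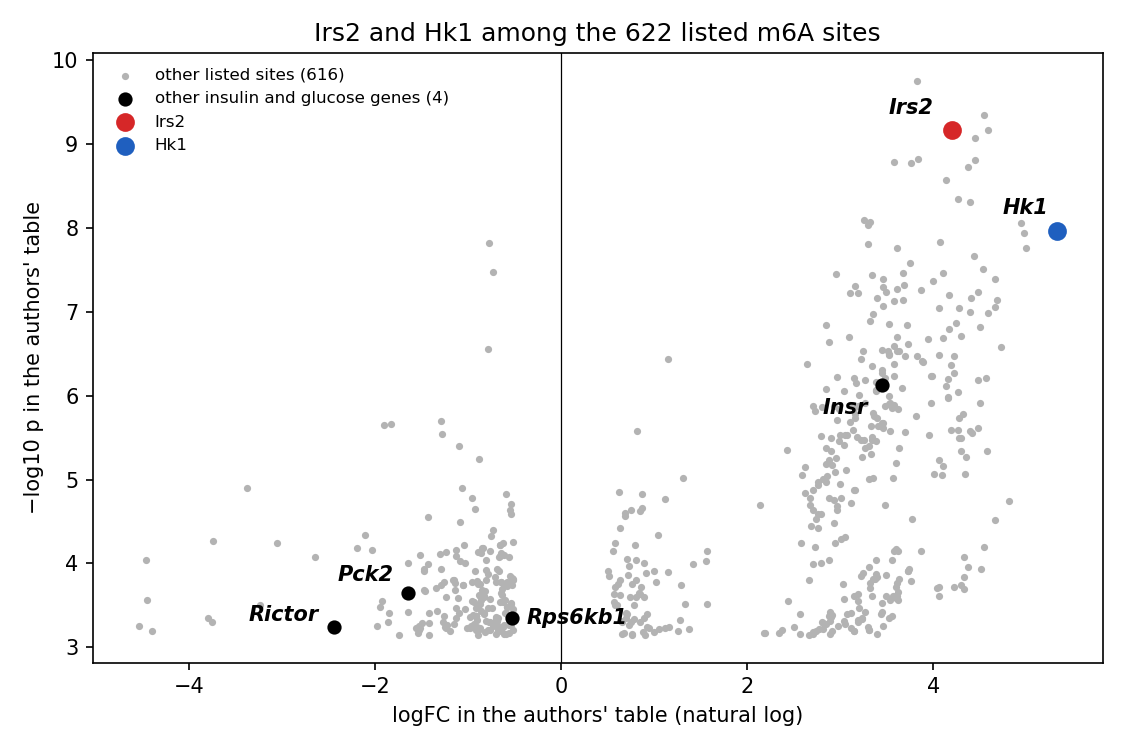
Each point is 1 of the 622 listed sites, with logFC (natural log, authors' table) on the horizontal axis and −log10 of the p-value in the authors' table on the vertical axis. Irs2 (red) is near the top at a logFC of 4.20, Hk1 (blue) is the rightmost point at 5.33, and black points are the other insulin and glucose genes.

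The size of a difference has to be read with its error, which the table does not give. If the p-values are 2-sided and come from a normal test of the logFC, they imply a standard error of 0.68 for Irs2 and 0.93 for Hk1, and 95% intervals of 2.87 to 5.54 for Irs2 and 3.50 to 7.15 for Hk1. In linear terms the intervals ran from 17.6-fold to 254.8-fold for Irs2 and from 33.2-fold to 1280-fold for Hk1. These intervals overlapped, but whether they do depends on the assumed test. With a t distribution of 6 degrees of freedom the intervals would be 4.05 to 4.36 for Irs2 and 5.02 to 5.63 for Hk1, without overlap. The study's methods describe a Wald test with an error taken from the likelihood, for which the normal distribution is usual. They do not name the distribution and mention no t distribution. The t intervals show only how far the values depend on this choice, and no order of the 2 values is read from the intervals. The 335 single-bin sites with a logFC above 2 had a median implied error of 0.74, and 94 of them had a smaller error than Irs2 and 288 a smaller one than Hk1. The 266 single-bin sites with an absolute logFC under 2 had a median implied error of 0.23. Each error is the absolute logFC over a quantile of its p-value, and the listed p-values ran only from 1.76e-10 to 7.11e-04. Larger differences therefore had larger implied errors largely by construction, and the 2 medians are not read as a result.

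**Figure D3:**
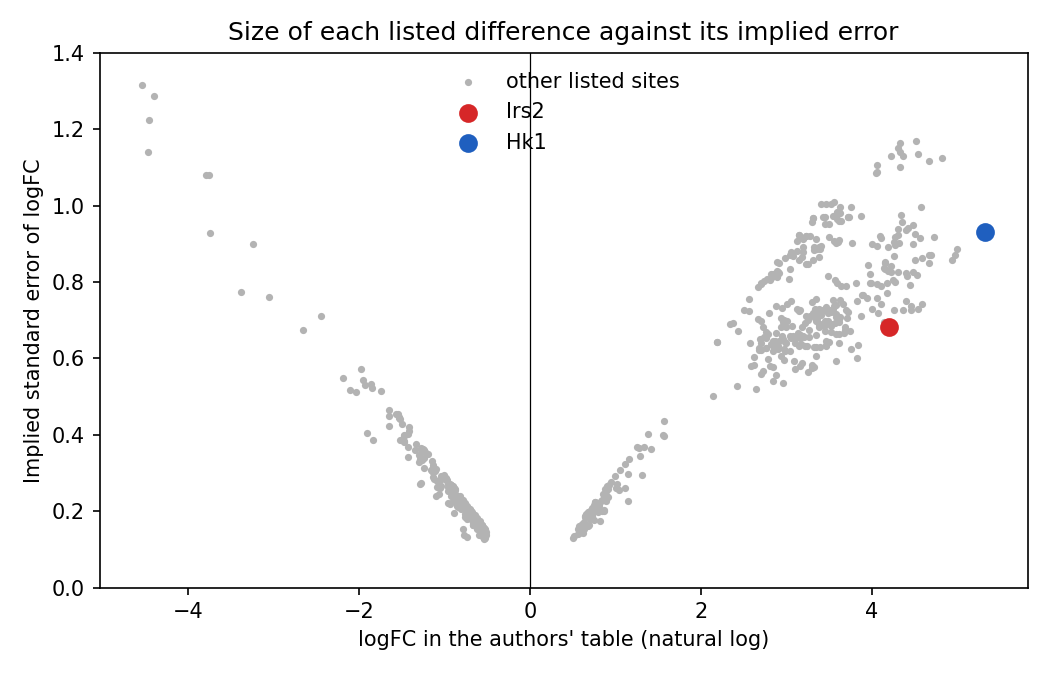
Implied standard error of the logFC (vertical axis, natural log units) against the logFC in the authors' table (horizontal axis) for the 622 listed sites. Of these, 616 were single bins, and for the merged ones the error is uncertain because how their p-values were combined was not given. The errors rise with the size of the difference, which follows largely from how they are computed, as the absolute logFC over a quantile of a limited range of p-values. Irs2 (red, 0.68) lies at the low edge of the sites with a logFC near 4.20, and Hk1 (blue, 0.93) lies at the right end.

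Both linear differences were whole numbers, 67 and 206, within 0.001. This was a feature of the large values of the table: 76 of the 79 sites with an absolute logFC above 4 had a whole-number ratio and the other 3 a multiple of 0.5, while of the 270 sites whose absolute logFC was under 2, 1 had a whole-number ratio. The ratio of Insr, the insulin receptor, was 31.5. Among the 337 sites with a logFC above 2, the ratio was a whole number in 154 and a fraction with a denominator of 2, 3 or 4 in 60, 52 and 56. Among the 270 smaller differences these counts were 1, 0, 0 and 2. The table does not give the counts behind these ratios, so whether the lower group held only a few reads was not tested. The fold sizes of both sites and the first place of Hk1 by logFC carry this limit.

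Other genes of the same pathways were read from 2 lists, 72 genes of insulin signalling and 77 of glucose metabolism, all of them in the annotation. A listed site was found in 4 of the 72 and 2 of the 77, with Irs2 and Hk1 among them, which together is 6 of 149 genes. In the whole annotation 552 of 21945 protein-coding symbols (2.52%) had a listed site, whether or not the gene is used in liver. Of the 6 sites, 3 had a positive and 3 a negative logFC, with a median of 1.46 beside 2.72 over all 622 sites. The members were chosen with their values known, so the counts describe the lists and say nothing particular about them.

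In insulin signalling, 2 of the 4 sites were positive, those of Irs2 and Insr. Insr, the receptor that phosphorylates IRS2, had a site at chr8:3153609-3153658 in its 3′UTR with a logFC of 3.45 (p-value 7.52e-07, implied standard error 0.70). Its bin held 2 RRACH matches, one of them GAACA as in Hk1. The receptor and its substrate both had a positive logFC, the sign of 66.4% of all listed sites. The 2 negative sites were those of Rictor and Rps6kb1. No pattern along the pathway is read from 4 sites of genes chosen with earlier results known. Rictor, a subunit of the mTORC2 complex that phosphorylates AKT, had a logFC of -2.45 in its coding sequence (p-value 5.78e-04). Rps6kb1, the S6 kinase that mTORC1 activates, had a logFC of -0.53 in its 3′UTR (p-value 4.43e-04).

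In glucose metabolism the other site was in the coding sequence of Pck2, the mitochondrial phosphoenolpyruvate carboxykinase, with a logFC of -1.65 (p-value 2.28e-04). It held 0 RRACH matches. The Rictor and Pck2 sites are printed because, like that of Irs2, they lay in coding sequence, but with the opposite sign.
Rictor site, chr15:6787012-6787061, plus strand: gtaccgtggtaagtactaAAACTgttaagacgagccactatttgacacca
Pck2 site, chr14:55548418-55548467, plus strand: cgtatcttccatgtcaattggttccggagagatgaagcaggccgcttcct

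**Figure D4:**
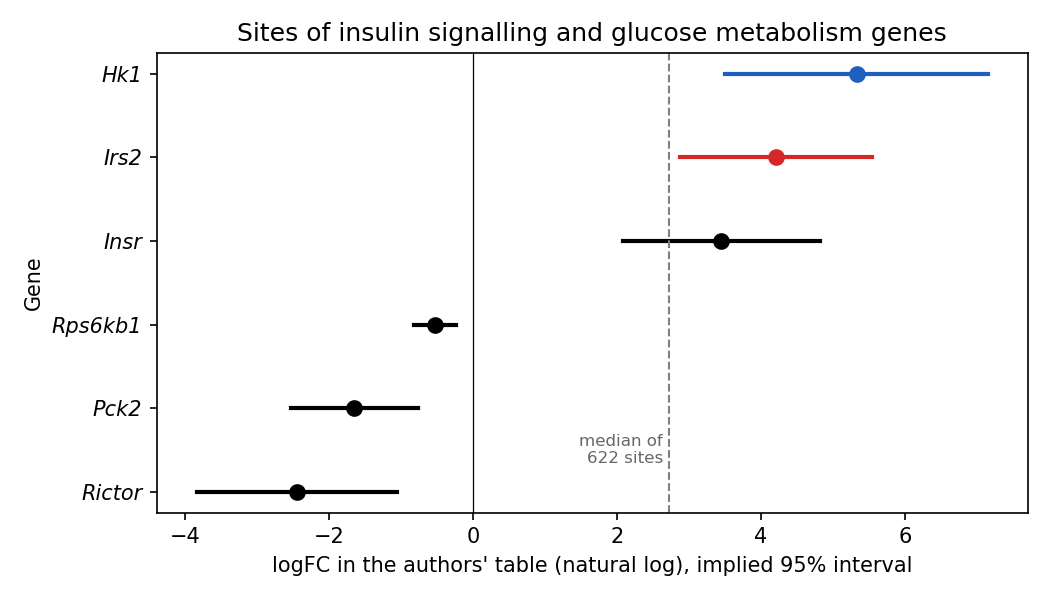
The logFC in the authors' table (points, natural log) and the 95% interval implied by the p-value (lines) for the 6 sites of insulin signalling and glucose metabolism genes. Hk1, Irs2 and Insr lie above 0, Rps6kb1, Pck2 and Rictor lie below 0, and the dashed line is the median of the 622 sites (2.72).

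None of the 5 paralogs looked up (Irs1, Irs4, Hk2, Hk3 and Hkdc1) had a listed site, which says that none passed into the table and not that they lacked m6A. Mettl14 itself had 0 listed sites, so the table holds no check of the knockout. The table gives no expression levels, so the liver could not be checked by its hepatocyte markers, 0 of 10 of which had a listed site. Of 37 markers of endothelial cells, macrophages, stellate cells, cholangiocytes and other leukocytes, 2 did, the complement genes C1qc (logFC 0.81) and C1qb (logFC 0.73), both made by Kupffer cells. These counts stand beside the 2.52% of protein-coding symbols with a listed site and the 66.4% of sites with a positive logFC. Whether cells other than hepatocytes took part in the Hk1 or Irs2 value was not tested.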

How the data were processed

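Poly(A) RNA of 8 livers was fragmented, and input and anti-m6A libraries were sequenced as single-end reads. Per the labels and the study's methods, the authors aligned reads with HISAT2 to mm10, counted them in 50-nt bins along each gene, corrected immunoprecipitated counts for input, tested each bin between genotypes with RADAR and merged adjoining bins that passed. The tool versions, the threshold and the reference genotype were not given in the sources used here. The deposited table gives for each site a logFC on the natural log scale and a p-value from the authors' test; the scale was taken from the ratios it yields. Both columns are the authors' comparison and are printed as deposited. Counts per library were not used here, the depth is unknown, and no test between groups was run.

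Positions were compared with GENCODE M21 and RefSeq annotations of GRCm38, the same assembly as mm10, where the longest coding transcript of a gene placed its site. Of 565 placed single-bin sites, 17 (3.01%) began on the 50-nt grid of joined GENCODE exons. The gene model behind the authors' bins was therefore not reproduced here. RRACH matches, overlaps included, were searched on the transcribed strand. A standard error was implied as the absolute logFC over the normal quantile of the 2-sided p-value. Other genomic matches were searched with BLAST+ 2.17.0 (word size 16), and Irs1 was aligned to Irs2 with Biopython 1.88. The implied standard errors, motif matches and window shares were checked on simulated data, and transcript positions and strand reversal on fixed examples. The named sites were every site of Irs2 and Hk1, the 3 sites next to each in both orders, all sites of the genes kept in the 2 pathway lists, and the paralogs. Another 2 genes were left out of the lists and of every count over them, and are not reported here. The members and lists were chosen with earlier results of these data known.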

Additional observations from a re-analysis of the deposited data

How the results depend on the processing

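Hk1 had the highest logFC of the whole table, so it was also first in every subset that held it, and its place could not change. The ranks by p-value (4 and 18) were the same among positive sites and with 1 site per gene. The logFC percentile of Irs2 was 87.2% among positive sites alone, against 91.5%. With a t distribution of 6 degrees of freedom, the implied standard errors fell to 0.0620 for Irs2 and 0.124 for Hk1. The 95% intervals of the 2 sites, which overlapped under the normal test, then no longer did. The study's methods mention no t distribution. The share of windows with a motif was 52.4% (Irs2) and 63.9% (Hk1) with DRACH, where D is A, G or T, and 17.2% and 27.2% with GGAC; with the exons of all Hk1 transcripts joined it was 53.4%. The share of listed sites with a motif was 69.1% with DRACH, 26.4% with GGAC, 56.2% among positive sites and 84.1% with 25 nt added on both sides. Older gene symbols added no gene to the 6. No paired analysis was possible because the table holds no value per mouse; for the same reason no mouse could be left out.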
